A study of Homo sapiens with 6 samples.

Results

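CD68, a heavily glycosylated membrane protein of late endosomes and lysosomes that is used as a macrophage marker, was the lysosomal gene that differed most between mesothelioma cells given a miR-503 inhibitor and control cells, and the question here was whether other lysosomal genes moved with it. The genes described are 34 genes of the lysosome, of which 31 had a row on the array and 3 (GLB1, NEU1 and NPC2) had none, among 21448 rows tested and 17687 named genes. CD68 was picked because of its difference on these arrays, so its values are a description without a test. The other names came from lysosomal function, with earlier results of these data known. The cells were of the human line MSTO-211H (MSTO), grown from a mesothelioma. The anti-miR-503 group held 3 cultures given an inhibitor of miR-503-5p and collected after 48 h. The control group held 3 cultures, for which 48 h is also given. The array labels name the controls untreated and mention a DMSO vehicle, whereas the methods mention both a negative control and untreated cells, so it is not settled what these cultures were given. From each culture 100 ng of total RNA went onto 1 Clariom S array, and the values are log2 signals, on which a difference of 1 is 2-fold. The labels call the cultures biological replicates of 1 cell line, and p-values measure only the spread between these cultures.

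Lysosomes are acidic compartments in which proteases, glycosidases and lipid-cleaving enzymes break down material that arrives by endocytosis and autophagy. A proton pump, the V-ATPase, keeps them acidic, and their membrane carries glycoproteins such as LAMP1 and LAMP2 together with transporters and ion channels. Many lysosomal genes share a short promoter motif, the CLEAR element, which is bound by TFEB and the other factors of the MiT/TFE family, so lysosomal genes can be raised together when these factors enter the nucleus.

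The RNA that the inhibitor is directed at is shown because it defines the treated group. It is hsa-miR-503-5p, at chrX:134546371-134546393 on the minus strand of GRCh38.p14 in the RefSeq annotation, and the capitals mark the seed, bases 2 to 8 from the 5′ end, with which a miRNA pairs to its targets.
hsa-miR-503-5p: uAGCAGCGggaacaguucugcag

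The 6 arrays had similar medians (6.56 to 6.63), which is no check of them, since the deposited values were already normalized by quantiles. On these arrays 40.3% to 43.6% of rows lay above the background of their array, the 95th percentile of its negative control rows (7.44 to 8.09). Anti-miR-503 replicate 1 stood with the controls. Over all rows its highest correlation was with control replicate 3 (r = 0.991), against 0.980 and 0.977 with the other anti-miR-503 arrays. Pairs of controls correlated at 0.980 to 0.988, so its values with the other anti-miR-503 arrays were close to the lowest between controls. Anti-miR-503 replicate 1 lay within the range of the controls for 20 of the 31 lysosomal genes (64.5%) and for 58.8% of all rows. The main results are therefore also given without it. That array was singled out by its values, so p-values of the fit without it are a description and no test. Of the 31 genes, 25 were above background on every array, against 37.5% of all rows, and 5 (CTSH, CTSK, CTSS, SMPD1 and TFEB) on 0 arrays, against 53.0%, which leaves CD68.

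On the log2 scale CD68 was at 7.83, 10.78 and 10.72 in anti-miR-503 replicates 1 to 3, against 7.38, 7.28 and 7.46 in control replicates 1 to 3. Anti-miR-503 replicates 2 and 3 were far above every control, replicate 1 was close to them, and the groups did not overlap. The mean was 9.78 ± 1.69 in anti-miR-503 cells and 7.38 ± 0.09 in control cells (SD, n = 3 each), a difference of 2.40 (standard error 0.70), which became 3.37 (0.24) without anti-miR-503 replicate 1. By the array labels this is an increase, opposite in sign to the gene table that accompanies the paper, and the same holds for SCARB2, MCOLN1 and ATP6V0D1 below and for every other lysosomal gene named here that this table lists. CD68 was above background on all 3 anti-miR-503 arrays, on replicate 1 only narrowly (background 7.75), and on 0 of the 3 control arrays. With the background standing in for the controls, the mean of CD68 was at least 3.68-fold higher in anti-miR-503 cells, and at least 7.22-fold higher without replicate 1. This bound is carried by replicates 2 and 3, since replicate 1 (7.830) was below the background of control replicate 2 (8.09) and just below that of control replicate 1 (7.834). It is a bound on group means that takes no account of their standard error.

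CD68 is best known from macrophages, so 21 macrophage and leukocyte markers were examined on the same arrays. The 20 that were measured, among them PTPRC, CD14, CSF1R, CD163, TYROBP and SPI1, were all below background on every array, the highest single value being 7.23. Of these 20 markers 0 passed an adjusted p under 0.05 from limma, 0 had an unadjusted p of 0.05 or less (1 by the test for 2 groups in the methods), and their mean level was 4.55, 4.60 and 4.93 on the anti-miR-503 arrays and 4.53, 4.51 and 4.69 on the control arrays. As marks of the cell line itself, 12 mesothelial and epithelial markers were examined. Of these, 6 were above background on every array, among them calretinin (CALB2, 9.75 to 11.03), mesothelin, KRT8, KRT18 and vimentin, and 5 were above it on 0 arrays. The 5 were among WT1, KRT5, KRT7, KRT19, PDPN, UPK3B and THBD, so the list was only partly detected. The 12 log2 differences, anti-miR-503 minus control, ran from -1.16 to 0.86, 6 positive and 6 negative. A 2-fold difference at an unadjusted p of 0.05 or less (limma) was found for 0. Without anti-miR-503 replicate 1 it was found for 1 upwards and 1 downwards (2.42% and 3.81% of all rows). The arrays measured bulk RNA, in which more cells carrying a transcript and more transcript per cell cannot be told apart.

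**Figure D1:**
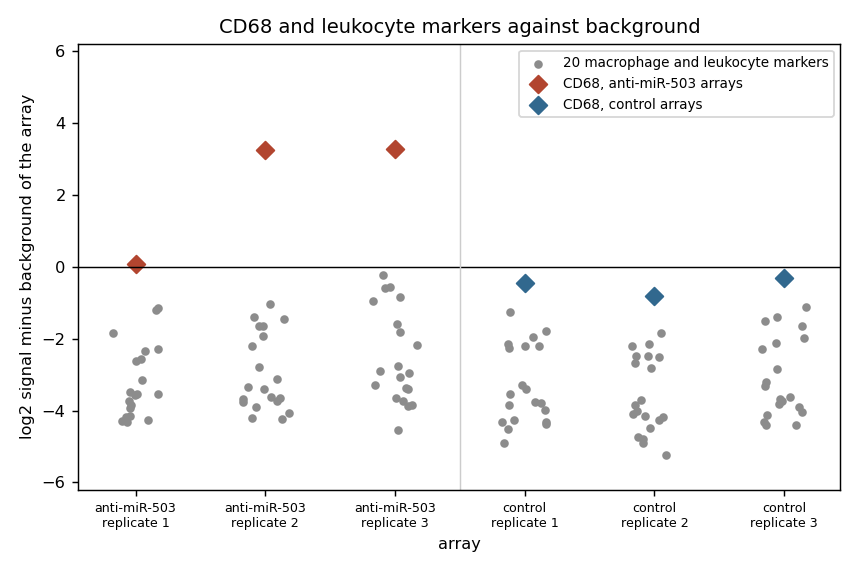
Log2 signal minus the background of the same array (vertical axis) on the 6 arrays (horizontal axis), for CD68 (diamonds) and the 20 measured macrophage and leukocyte markers (grey points, spread sideways for legibility). CD68 lies above 0 on the 3 anti-miR-503 arrays, well above it on replicates 2 and 3, and below 0 on the 3 control arrays. All grey points lie below 0 on all 6 arrays.

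The other lysosomal genes did not move in one direction with CD68. Of the 30 others, 14 were higher and 16 lower in anti-miR-503 cells, with a median log2 difference of -0.01, against 0.01 over all rows tested. Over all 31 the split was 15 to 16, and 17 to 14 after a second quantile normalization or centring of the arrays on their medians. For 22 of the 31 genes, all but 9, the difference was 0.5 or less in size, and for 14 it was smaller than the pooled SD within groups. At an adjusted p under 0.05 (limma, Benjamini-Hochberg over all rows) 0 of the 30 others passed, as did 0 of all rows, and 4 of the 30 had an unadjusted p of 0.05 or less, which 6.42% of all rows had. By the test for 2 groups in the methods 0 of the 30 passed after adjustment and 2 before it, against 4.74% of all rows before it. A second, looser threshold asked for a 2-fold difference together with an unadjusted p no higher than 0.05. SCARB2 was the 1 gene of the 30 past it, upwards, and 0 were past it downwards, where 0.872% of all rows passed upwards and 0.914% downwards. The groups did not overlap for CTSB, SQSTM1 and TFEB, 3 of the 30, all of them upwards, and for 0 of the 30 downwards, where 5.92% of all rows were free of overlap upwards and 4.60% downwards. The share of rows called is printed for scale, and nothing is read from the counts that hold CD68.

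**Figure D2:**
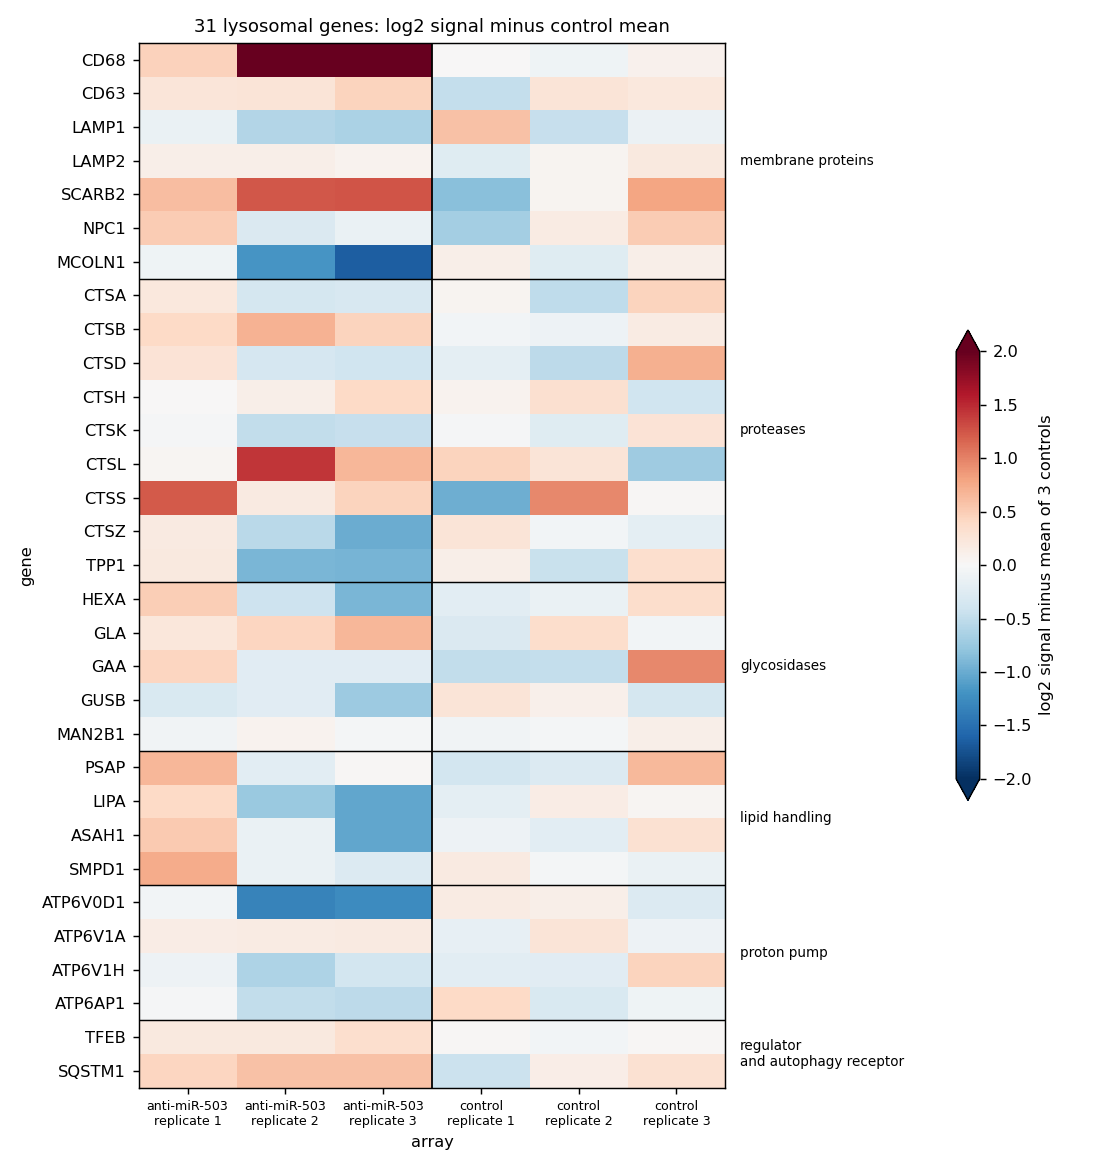
Log2 signal minus the mean of the 3 control arrays (colour, red above and blue below, cut at 2 in either direction) for the 31 lysosomal genes (rows, grouped by role) on each array (columns, anti-miR-503 left of control). CD68 is deep red on anti-miR-503 replicates 2 and 3, SCARB2 and CTSL are red there, and MCOLN1, ATP6V0D1, TPP1 and LIPA are blue there, whereas on anti-miR-503 replicate 1 they are near white or pale red.

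Array by array, the lysosomal genes split with anti-miR-503 replicate 1. Their median against the control mean was 0.21 in anti-miR-503 replicate 1, with 23 of the 31 above it, and -0.21 and -0.22 in replicates 2 and 3, with 13 above it in each. Each control against the other controls gave a median of -0.10, -0.08 and 0.17 for replicates 1 to 3, shifts that were somewhat smaller than those of the anti-miR-503 arrays. With this array left out, the 31 genes had a median of -0.21, against 0.01 over all rows, and 27 of the 31 kept their sign. In that fit 0 of the 30 genes other than CD68 passed an adjusted p under 0.05 (limma), where 0.359% of all rows did in each direction, and 8 had an unadjusted p of 0.05 or less, where 14.5% of all rows did. Of these 30, 2 (SCARB2 and CTSL) were past the 2-fold threshold upwards and 2 (MCOLN1 and ATP6V0D1) downwards, against 2.42% and 3.81% of all rows, and groups were free of overlap for 7 upwards and 11 downwards, against 16.0% and 15.9% of all rows.

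**Figure D3:**
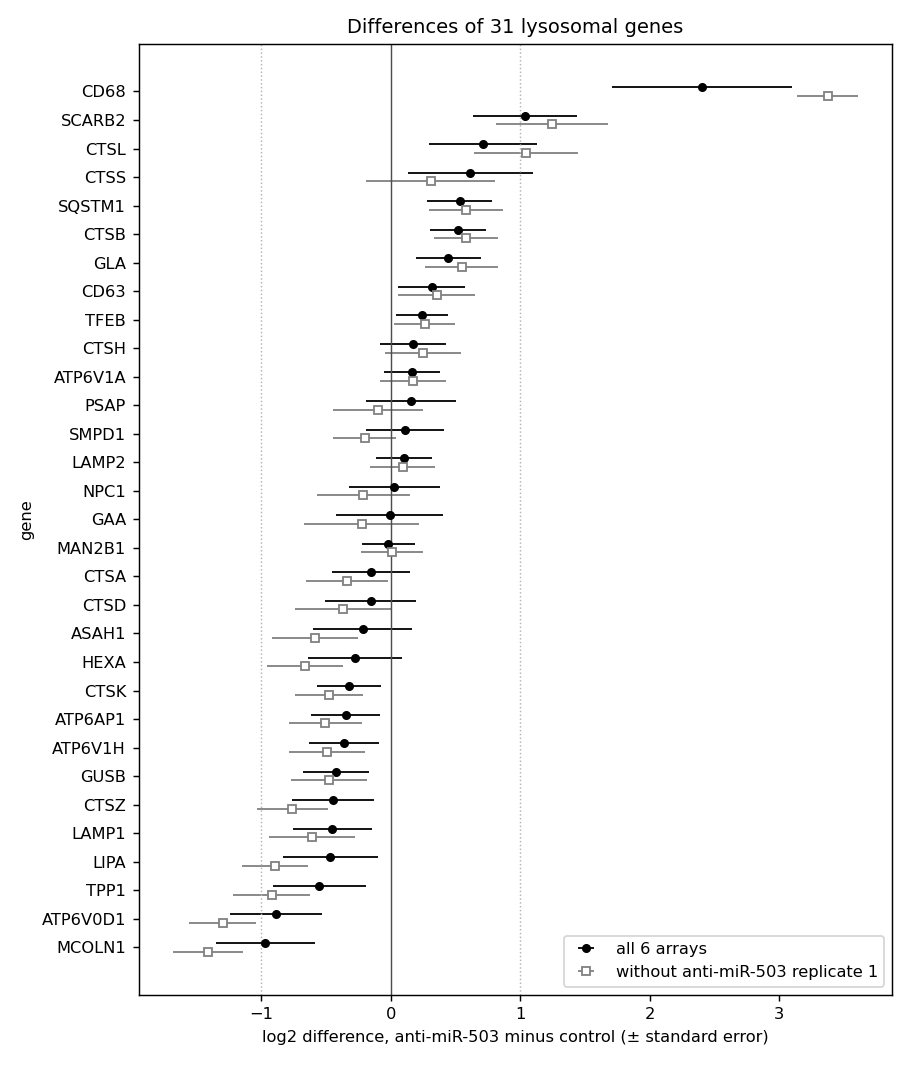
Log2 difference, anti-miR-503 minus control, with its standard error (horizontal axis) for the 31 lysosomal genes (vertical axis, ordered by difference), over all 6 arrays (filled circles) and without anti-miR-503 replicate 1 (open squares). Dotted lines mark 2-fold. CD68 stands apart at 2.40, the next genes are SCARB2 at 1.04 and CTSL at 0.71, and MCOLN1 (-0.97) and ATP6V0D1 (-0.88) lie at the other end.

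Among the 7 membrane proteins, 5 differences were positive and 2 negative, with a median of 0.10 (0.09 without anti-miR-503 replicate 1 and -0.02 without control replicate 1). SCARB2, the lysosomal membrane protein that carries glucocerebrosidase to lysosomes, was at 11.05, 11.68 and 11.69 in anti-miR-503 cells, against 9.61, 10.49 and 11.23 in control cells. Its lowest anti-miR-503 value was below its highest control value, so the groups overlapped, and the controls themselves spread over more than 2-fold. The difference was 1.04 (standard error 0.40, adjusted p = 0.756, limma), ranged from 0.62 without control replicate 1 to 1.43 without control replicate 3, and was below 1 without anti-miR-503 replicate 2 or 3 as well (0.93 each). Without control replicate 2 it was 1.06 but no longer had an unadjusted p of 0.05 or less, so the call rested on 4 of the 6 arrays. MCOLN1, the lysosomal calcium and cation channel mucolipin-1, moved the other way. It was at 10.85, 9.75 and 9.29 in anti-miR-503 cells, against 11.05, 10.69 and 11.05 in control cells, so replicates 2 and 3 were below every control and replicate 1 lay among them. Its difference of -0.97 (0.38, adjusted p = 0.756, limma) was just short of 2-fold and became -1.41 (0.27, adjusted p = 0.060) without replicate 1.

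The best known proteins of the lysosomal membrane changed less than these. LAMP1 was at 11.01, 10.58 and 10.52 in anti-miR-503 cells, against 11.73, 10.70 and 11.03 in control cells, with overlapping groups and a difference of -0.45 (0.31). LAMP2, which also takes part in autophagy, had a difference of 0.10 (0.22), and the tetraspanin CD63, found in late endosomes and exosomes, one of 0.32 (0.26). NPC1, which exports cholesterol from lysosomes, had 0.03 (0.35). None of these 4 genes passed a threshold. MCOLN1, LAMP1 and, further on, ASAH1 are given array by array as genes chosen after their values or promoters had been seen.

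**Figure D4:**
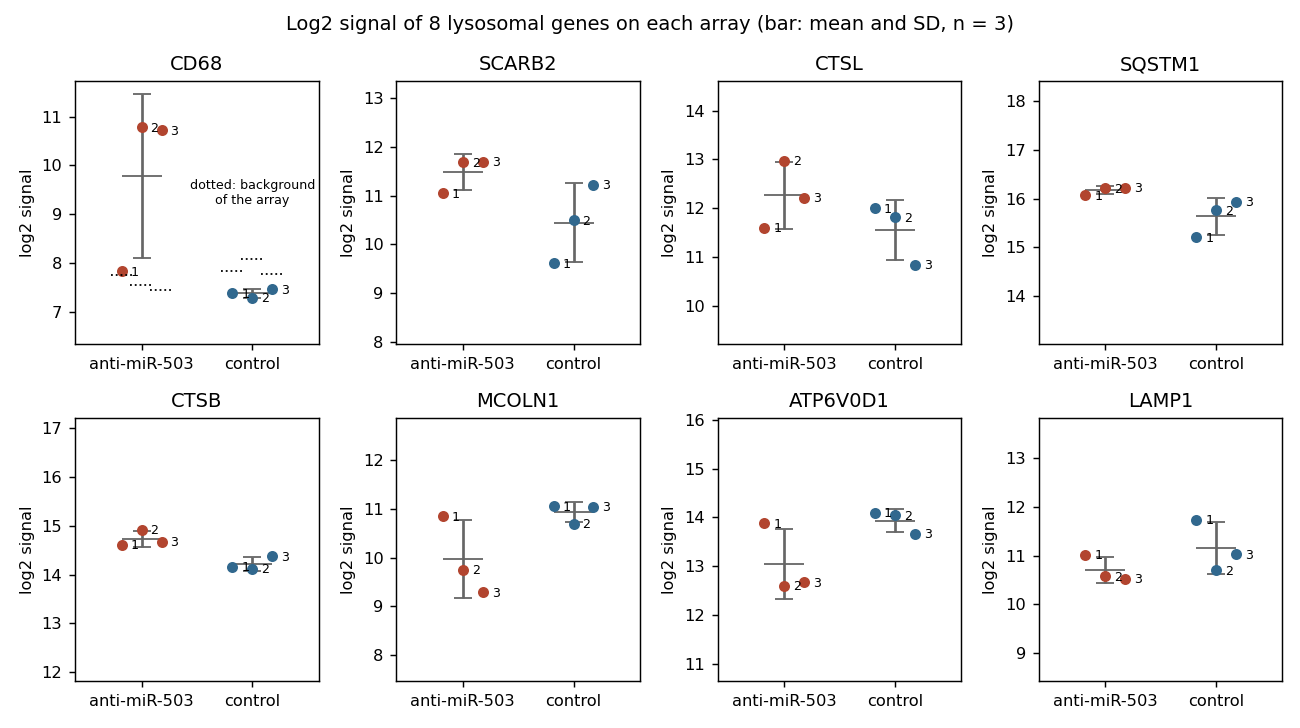
Log2 signal (vertical axis, each panel spanning the same number of log2 units) of 8 lysosomal genes on each array, with anti-miR-503 left of control, replicate numbers beside the points, and bars for the mean and SD of 3 cultures. CD68 on anti-miR-503 replicates 2 and 3 lies above 10 and every control below 8 and below the dotted background of its array, whereas for SCARB2, CTSL, MCOLN1, ATP6V0D1 and LAMP1 the groups overlap.

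The 9 proteases had a median of -0.15, with 4 differences positive and 5 negative (-0.34 without anti-miR-503 replicate 1 and 0.07 without control replicate 3). Cathepsin B (CTSB), a cysteine protease of broad specificity, was at 14.61, 14.92 and 14.67 in anti-miR-503 cells, against 14.16, 14.12 and 14.37 in control cells. All 3 anti-miR-503 values, replicate 1 included, were above all 3 controls. The difference was 0.52 (standard error 0.21, adjusted p = 0.756, limma), or 1.43-fold, and it kept between 0.42 and 0.60 whichever array was left out. Cathepsin L (CTSL), another cysteine protease, was at 11.60, 12.98 and 12.21 in anti-miR-503 cells, against 12.00, 11.81 and 10.84 in control cells. Replicate 2 of the anti-miR-503 cells was the highest and control replicate 3 the lowest, and anti-miR-503 replicate 1 was below 2 controls. Its difference of 0.71 (0.42, adjusted p = 0.774) became 1.04 (0.40, adjusted p = 0.288) without that array. The exopeptidase tripeptidyl peptidase 1 (TPP1) and cathepsin Z (CTSZ), a carboxypeptidase, lay on the other side, with -0.55 (0.36) and -0.44 (0.32), which became -0.92 (0.30) and -0.76 (0.27) without anti-miR-503 replicate 1. Cathepsin A (CTSA), which also protects other lysosomal enzymes, and the aspartic protease cathepsin D (CTSD) had -0.15 (0.30) and -0.16 (0.35). Cathepsins S, K and H were below background on every array, and no fold is given for them.

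Of the 7 glycosidases, which remove sugars from glycoproteins and glycolipids, 5 were measured, and 1 difference was positive and 4 negative (median -0.02). The median was -0.23 without anti-miR-503 replicate 1, and either other scaling of the arrays turned the split to 3 positive and 2 negative. GLA, alpha-galactosidase A, was at 10.77, 10.96 and 11.21 in anti-miR-503 cells, against 10.24, 10.89 and 10.48 in control cells. Replicate 1 of the anti-miR-503 cells was below control replicate 2, so the groups overlapped, and the difference was 0.44 (standard error 0.25, adjusted p = 0.771, limma). The beta-glucuronidase GUSB had -0.42 (0.26), the beta-hexosaminidase subunit HEXA -0.28 (0.36), the glycogen-degrading alpha-glucosidase GAA -0.01 (0.41) and the alpha-mannosidase MAN2B1 -0.02 (0.20). MAN2B1 was also among the steadiest genes, between 9.16 and 9.35 on all 6 arrays.

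Of the 5 genes of lipid handling, 4 were measured, 2 differences positive and 2 negative (median -0.05). Without anti-miR-503 replicate 1 all 4 were negative (median -0.39), and the median was 0.21 with anti-miR-503 replicate 3 left out instead. LIPA, the lysosomal acid lipase that cleaves cholesteryl esters and triglycerides, was at 13.43, 12.29 and 11.99 in anti-miR-503 cells, against 12.84, 13.19 and 13.08 in control cells. Anti-miR-503 replicate 1 was the highest of the 6 arrays and replicates 2 and 3 the lowest. The difference was -0.47 (standard error 0.37, adjusted p = 0.808, limma) and -0.89 (0.26, adjusted p = 0.160) without replicate 1. ASAH1, acid ceramidase, was highest on anti-miR-503 replicate 1 and lowest on replicate 3, with 12.19, 11.53 and 10.63 in anti-miR-503 cells, against 11.57, 11.46 and 11.97 in control cells, and a difference of -0.22 (0.38). PSAP, the precursor of the saposins that help enzymes reach their lipid substrates, had 0.15 (0.35), and SMPD1, acid sphingomyelinase, was below background on every array.

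For the proton pump, 3 of the 4 differences were negative (median -0.35, and -0.50 without anti-miR-503 replicate 1). ATP6V0D1, a subunit of the membrane sector of the V-ATPase, was at 13.88, 12.60 and 12.68 in anti-miR-503 cells, against 14.10, 14.05 and 13.66 in control cells. Replicates 2 and 3 were about 1 log2 unit or more below every control, and replicate 1 lay among the controls. The difference was -0.88 (standard error 0.36, adjusted p = 0.756, limma) and -1.30 (0.26, adjusted p = 0.064) without replicate 1. The cytosolic subunits ATP6V1H and ATP6V1A had -0.36 (0.27) and 0.16 (0.22), and the accessory protein ATP6AP1 had -0.35 (0.27). ATP6V1A was nearly the same in all anti-miR-503 cultures (10.46 to 10.49) and varied more in the controls (10.16 to 10.57).

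SQSTM1, or p62, the receptor that delivers ubiquitinated cargo to autophagosomes, was at 16.07, 16.21 and 16.22 in anti-miR-503 cells, against 15.21, 15.76 and 15.94 in control cells. All anti-miR-503 values were above all controls, although the gap between the nearest cultures was small beside the spread of the controls. The difference was 0.53 (standard error 0.25, adjusted p = 0.756, limma), or 1.45-fold. TFEB, the transcription factor that drives lysosomal genes, was at 2.84, 2.83 and 2.98 in anti-miR-503 cells, against 2.67, 2.59 and 2.67 in control cells. Its groups did not overlap, but all 6 values were far below background, so they do not measure a level of TFEB and no fold is given.

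Over the 6 arrays the lysosomal genes whose signal followed that of CD68 most closely were CTSB (Pearson r = 0.844), TFEB (0.818) and SCARB2 (0.743), as a description over the same 6 cultures and with TFEB below background. Correlations of the opposite sign were larger in size, with ATP6V0D1 (-0.978), MCOLN1 (-0.955), LIPA (-0.891), CTSZ (-0.866) and TPP1 (-0.847). CD68 was below background on every control array and high only on anti-miR-503 replicates 2 and 3. Each r therefore mainly sets these arrays against the others. The measured genes nearest to CD68 in the RefSeq order, with genes that had no row passed over, did not show its difference. On one side SENP3-EIF4A1, SENP3 and TNFSF13 had 0.04, -0.25 and 0.36, and on the other MPDU1, SOX15 and FXR2 had -0.36, -0.30 and 0.24, none past the 2-fold threshold and with TNFSF13 and SOX15 below background on every array.

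The promoters of these genes were searched for the motif at the core of the CLEAR element, because genes that share it can move together. The letters searched were CACGTG, the E-box, and TCACGTGA, an extended E-box that contains it, and each reads the same on both strands. RefSeq windows of GRCh38.p14 from 250 bases before to 50 bases after a gene start were at hand for 22 of the 31 measured genes. The E-box was in the window of 7 of these 22 (31.8%), against 8.77% of 27305 genes with a window, and the extended E-box in 5 (22.7%), against 1.18%. These 5 genes are ATP6V0D1, CTSA, GAA, LAMP1 and MCOLN1. The stretches of 24 bases around each extended E-box are shown 5′ to 3′ on the strand of the gene, with the motif in capitals. The position given is that of the first base of CACGTG within the motif, counted from the gene start.
ATP6V0D1, chr16:67481202-67481225, minus strand, at -59: ccttatggTCACGTGAggcgcttg
CTSA, chr20:45891301-45891324, plus strand, at -25: gccggagtTCACGTGActcgtaca
GAA, chr17:80101496-80101519, plus strand, at -76: aggccgcgTCACGTGAcccaccgc
GAA, chr17:80101541-80101564, plus strand, at -31: cccgccggTCACGTGAcccgcctc
LAMP1, chr13:113297202-113297225, plus strand, at -28: ccgcgggaTCACGTGAcgcccggg
LAMP1, chr13:113297229-113297252, plus strand, at -1: ggcgcagcTCACGTGAcaagcgct
MCOLN1, chr19:7522574-7522597, plus strand, at -41: agaggcggTCACGTGAggggctct
MCOLN1, chr19:7522601-7522624, plus strand, at -14: ctaccgggTCACGTGAccgaggca

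The 5 genes with an extended E-box had log2 differences of -0.97 (MCOLN1), -0.88 (ATP6V0D1), -0.45 (LAMP1), -0.15 (CTSA) and -0.01 (GAA), a median of -0.45, so 0 of the 5 were higher in anti-miR-503 cells, although GAA lay slightly above 0 after a second quantile normalization (0.05) or centring on array medians (0.03). The 17 genes with a window that did not hold it had a median of 0.11, with 10 higher and 7 lower. With replicate 1 of the anti-miR-503 cells left out, the medians were -0.61 and 0.01. Among the 5, GAA and CTSA changed sign when control replicate 3 was left out (0.47 and 0.07). GAA was also positive without anti-miR-503 replicate 2 or 3 (0.10 each). MCOLN1, ATP6V0D1 and LAMP1 stayed negative whichever array was left out. The 7 genes with an E-box of either kind had a median of -0.16, with 1 higher (CD63) and 6 lower, and the 15 without one a median of 0.11, with 9 higher and 6 lower. Neither motif was in the windows of CD68, SCARB2, CTSL or SQSTM1, nor in those of TPP1, LIPA, CTSZ, GUSB or ATP6AP1, whose differences were negative, which says only that these letters are not in that stretch. None of these differences passed an adjusted p under 0.05, the split by motif was made after the values were known, and it is given as a description.

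Other genes of the pathway were taken from lists. For scale in each of these lists, 0.872% of all rows passed the 2-fold threshold upwards and 0.914% downwards. Without anti-miR-503 replicate 1 these shares were 2.42% and 3.81%. Of 41 further hydrolases and activators 32 were measured, with a median of -0.08, and 0 passed the 2-fold threshold upwards and 2 downwards (a median of -0.19, 0 and 5 without anti-miR-503 replicate 1). The 2 were ARSB, arylsulfatase B, at 8.67, 6.55 and 6.78 in anti-miR-503 cells, against 8.39, 8.59 and 9.01 in control cells (-1.33, standard error 0.51), and ACP2, a lysosomal acid phosphatase, at 8.05, 7.17 and 6.55, against 8.85, 8.52 and 7.63 in control cells (-1.08, 0.44). In both genes anti-miR-503 replicate 1 lay within the control range, and replicates 2 and 3 were below background. With replicate 1 left out, ARSB was at least 2.25-fold lower in anti-miR-503 cells, with the background standing in for them (adjusted p = 0.032, limma).

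Of 24 measured membrane proteins and transporters outside the 31 genes (of 25 listed) the median was -0.16, with 0 past the 2-fold threshold upwards and 1 downwards. Without anti-miR-503 replicate 1 the values were -0.44, 0 and 4 (2.42% of all rows upwards and 3.81% downwards). The median was -0.03 without anti-miR-503 replicate 3 and -0.04 without control replicate 3. The 1 gene was TPCN2, a 2-pore channel of lysosomes, at 8.51, 7.51 and 6.31 in anti-miR-503 cells, against 9.14, 8.69 and 8.63 in control cells, with no overlap and anti-miR-503 replicates 2 and 3 below background (-1.37, standard error 0.49, adjusted p = 0.756, limma). Of 17 measured further subunits of the proton pump (of 20) the median was -0.08 (-0.23 without anti-miR-503 replicate 1 and 0.03 without anti-miR-503 replicate 3), with 0 upwards and 1 downwards, ATP6V1D, at 10.05, 9.44 and 8.52 in anti-miR-503 cells, against 10.24, 11.17 and 9.91 in control cells (-1.10, 0.45). In ATP6V1D the groups overlapped through anti-miR-503 replicate 1.

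Of these further lists the lowest median was that of sorting to lysosomes, the receptors and adaptors that carry enzymes from the Golgi. Of its 22 measured genes (of 24) 18 were lower and 4 higher in anti-miR-503 cells, with a median of -0.24. After either other scaling the median was -0.21, with 17 lower. However, 0 passed the 2-fold threshold in either direction, and 1 had an unadjusted p of 0.05 or less (6.42% of all rows). The median was -0.47 with replicate 1 of the anti-miR-503 cells left out, and -0.11 with replicate 3 left out, with 20 and 16 lower. In the fit without replicate 1 there were 2 past the 2-fold threshold downwards and 0 upwards (3.81% and 2.42% of all rows). In that fit 0 were at an adjusted p under 0.05, against 7 at an unadjusted p of 0.05 or less (14.5% of all rows). Of 16 measured MiT/TFE factors and genes of mTORC1 nutrient signalling (of 17), the switch that holds these factors in the cytoplasm, the median was 0.10 and 0 passed the 2-fold threshold. The median was -0.02 without anti-miR-503 replicate 1, with 1 gene past the threshold downwards, and -0.05 without control replicate 1.

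Autophagy genes, all 18 measured, had a median of 0.03 (0.10 without anti-miR-503 replicate 1), with 11 higher and 7 lower, and groups without overlap in 5 upwards and 0 downwards (5.92% and 4.60% of all rows). In the other lists such groups were 2 upwards and 3 downwards for the further hydrolases and activators. They were 0 and 4 for the further membrane proteins and transporters, and 0 and 0 for the further proton pump subunits. Sorting to lysosomes had 1 and 1, as did the MiT/TFE and mTORC1 list. The 1 autophagy gene past the 2-fold threshold was WIPI1, a phosphoinositide-binding protein of early autophagosomes, upwards (0.872% of all rows). It was at 8.70, 10.20 and 10.26 in anti-miR-503 cells, against 7.62, 8.35 and 8.56 in control cells. Like CD68, WIPI1 was highest on anti-miR-503 replicates 2 and 3, with replicate 1 close to the controls and no overlap, and it was above background on 5 arrays, all but control replicate 1. The difference was 1.54 (standard error 0.45, adjusted p = 0.756, limma), and 2.05 (0.32, adjusted p = 0.039) without replicate 1.

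**Figure D5:**
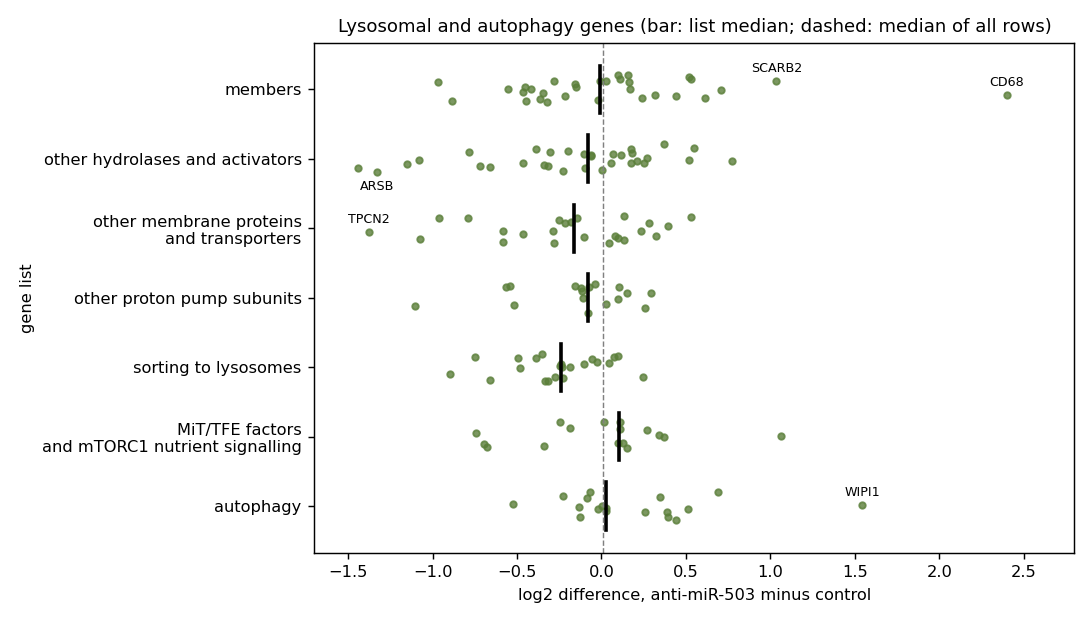
Log2 difference, anti-miR-503 minus control (horizontal axis), of each measured gene of the 7 lysosomal and autophagy lists (vertical axis, points spread for legibility), with a bar at the median of each list and a dashed line at the median of all rows. CD68 at 2.40 and WIPI1 at 1.54 lie furthest to the right, TPCN2 and ARSB among those furthest to the left, and the list medians lie between -0.24 and 0.10.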

How the data were processed

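RNA of 6 cultures was measured on Clariom S arrays. The authors ran RMA in the Transcriptome Analysis Console, which corrects background, normalizes by quantiles and summarizes probes, and deposited 1 log2 signal for each transcript and array. These values were used unchanged. No position of an array row is printed, because the sources used here name no annotation build.

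Array controls (2903 of 24351 rows) were left out, and 21448 rows were tested by linear models (limma 3.58.1, lmFit and eBayes, R 4.3.3), anti-miR-503 minus control, with Benjamini-Hochberg adjustment over all of them. The platform annotation gave 1 symbol for 17709 rows and none for 3739, and each of the 31 measured genes had 1 row. Background was the 95th percentile of 612 negative control rows per array. The number of arrays limits the precision, and there is no read depth. The genes and lists were chosen with earlier results of these data known. Values on each array are given for CD68, for genes past a threshold or without overlap, for the largest difference in each role class, and for up to 4 genes of each other list past the 2-fold threshold. The procedure was tested on simulated data. Promoter windows and the miRNA sequence came from RefSeq. Alternatives were a variance trend, the t-test of the methods, a filter on dim rows, a second quantile normalization, median centring, weights for arrays, replicate number as a block, a 1.5-fold threshold and leaving out each array. The replicate numbers were not taken as a pairing of cultures. Deviations of same-numbered arrays correlated at -0.10, 0.21 and 2.9e-05, which with so few arrays cannot settle if cultures were paired. Figures were drawn with matplotlib 3.10.9.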

Additional observations from a re-analysis of the deposited data

How the results depend on the processing

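The difference of CD68 ranged from 1.90 to 3.37 when 1 array was left out. The count of genes at an adjusted p under 0.05 was 0 and ranged from 0 to 1 over the arrays left out, the 1 being CD68, which was picked by this difference, so that its call is no test. The count past the 2-fold threshold upwards, which takes in CD68, was 2, was 0 by the t-test of the methods and ranged from 1 to 3. SCARB2 was the gene lost without anti-miR-503 replicate 2, anti-miR-503 replicate 3 or control replicate 1, and without control replicate 2 CTSS, below background on every array, passed in its place. Downwards the count was 0, was 2 with array weights and 2 at 1.5-fold, and ranged from 0 to 2, MCOLN1 and ATP6V0D1 being the 2 without anti-miR-503 replicate 1. Shares of all rows past the 2-fold threshold were computed for all 6 arrays (0.872% upwards, 0.914% downwards) and without anti-miR-503 replicate 1 (2.42% and 3.81%). They were not computed for the other settings, so those counts are a description. The median over the 31 genes, -0.01, ranged from -0.21 without anti-miR-503 replicate 1 to 0.10 without anti-miR-503 replicate 3, so its sign turned with the array left out, and it was 0.05 after a second quantile normalization and 0.03 after centring. With the replicate number as a block, a pairing that is not settled, the counts were again 0, 2 and 0, the median -0.01 and the difference of CD68 2.40. Over the single genes, 418 alternative values kept their side of the threshold, 24 fell short of it, 8 passed it and 0 turned sign past it. Averaging several rows of a symbol was not run, since each of the 31 genes has 1 row. With 3 cultures a group and values below background for CD68 in the controls and for 5 genes throughout, small differences were not detectable.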
